A study of Mus musculus with 27 samples.

Results

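Mast cell protease and receptor genes were followed through the colon of control mice and of mice whose gut epithelium lacks Foxa1 and Foxa2, a pair of forkhead transcription factors. The 8 genes were chosen by name out of 35975 genes measured, with earlier results of these data known. Mcpt1, Mcpt2, Mcpt4 and Cma1 encode chymases, Tpsb2 a tryptase and Cpa3 a carboxypeptidase, while Fcer1a and Ms4a2 encode the alpha and beta chains of the high-affinity IgE receptor.

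Poly(A) RNA was sequenced from pieces of whole colon in 27 libraries of 14 mice of mixed background, with 13 mice giving both segments. Deficient mice carried Villin1-Cre; Foxa1lox/lox; Foxa2lox/lox, were 9 to 13 months old, and gave 7 proximal and 7 distal libraries, with 2 of the 7 mice labelled female. Control mice, all labelled male and 9 to 18 months old, gave 7 proximal and 6 distal libraries. Of the 7 control mice, 5 carried Foxa1lox/lox; Foxa2lox/lox without Cre. Control replicate 1 carried Villin1-Cre; Foxa1lox/wt; Foxa2lox/wt, and control replicate 6 carried Villin1-Cre; Foxa1lox/lox; Foxa2lox/wt. Every mouse thus had loxP-flanked alleles of both genes, and Cre was present in 2 of the control mice as well. Villin1-Cre is active in the intestinal epithelium, and mast cells are not epithelial cells.

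Mast cells are tissue-resident immune cells that store proteases in granules and release them when IgE bound to their receptor is crosslinked. In mice, Mcpt1 and Mcpt2 are known from the mucosal type, which lies in and under the gut epithelium and multiplies during worm infection. Mcpt4, Cma1, the tryptases and Cpa3 are known from the connective tissue type of the submucosa, serosa and skin. Cpa3 and the IgE receptor chains are shared by both types, and Fcer1a is also present on basophils.

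The 4 chymase genes lie on chromosome 14 (GRCm38) in one cluster, with Cma1 at 55941451 to 55944675 on the minus strand, Mcpt1 at 56017971 to 56020384 on the plus strand, Mcpt2 at 56042041 to 56044642 on the plus strand and Mcpt4 at 56059629 to 56062313 on the minus strand. Cpa3 is on chromosome 3 (20215620 to 20242181, minus strand), Tpsb2 on chromosome 17 (25366305 to 25369098, plus strand), Fcer1a on chromosome 1 (173221284 to 173227214, minus strand) and Ms4a2 on chromosome 19 (11615523 to 11623719, minus strand). The chymase transcripts resemble each other. Mcpt1 was 82.5% identical to Mcpt2 and 83.9% to Mcpt4 over the aligned bases of their transcripts, and Cma1 was 70.9% identical to Mcpt4. Of all 31-base words in the transcripts of a gene, 93.3% were found in no other gene for Mcpt1, 94.9% for Mcpt2, 87.8% for Mcpt4 and 89.4% for Cma1. Mcpt4 shared 10.2% of its words with the neighbouring gene Cma2, and Cma1 shared 10.6% with the pseudogene Gm48934, so reads from those stretches could be divided between copies. Cpa3 and Fcer1a shared no word with another gene.

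RefSeq promoter sequences (GRCm38.p6) were at hand for 6 of the 8 genes, and the 250 bases before the start were searched on both strands. The word AGATAA, the word AGATAG, the word TGATAA or the word TGATAG, forms of the site read by GATA factors that act in mast cells, occurred in all 6, against 26.5% of 32851 promoters. The word TGTTTAC or the word TGTTTGC, forms of the forkhead site, occurred in 0 of 6, against 7.3% of promoters. The E-box word CACGTG or the form CATGTG occurred in Fcer1a alone, against 17.6%. The last 130 bases before the start are shown for 4 protease genes, 5′ to 3′ in the direction of the gene with the GATA words of either strand in capitals. They were chosen to set the similar promoters of Mcpt1 and Mcpt4 beside those of Cma1 and Cpa3. With all distal libraries, Mcpt1 was called higher in deficient mice while Mcpt4, Cma1 and Cpa3 were not. The genes were not tested against each other. They lie at chr14:56017834-56017963 (plus strand), chr14:56062311-56062440 (minus strand), chr14:55944676-55944805 (minus strand) and chr3:20242182-20242311 (minus strand).
Mcpt1: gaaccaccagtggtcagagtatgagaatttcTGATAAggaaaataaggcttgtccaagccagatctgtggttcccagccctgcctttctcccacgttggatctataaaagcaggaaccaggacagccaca
Mcpt4: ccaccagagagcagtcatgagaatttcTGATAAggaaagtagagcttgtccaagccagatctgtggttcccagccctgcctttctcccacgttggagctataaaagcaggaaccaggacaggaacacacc
Cma1: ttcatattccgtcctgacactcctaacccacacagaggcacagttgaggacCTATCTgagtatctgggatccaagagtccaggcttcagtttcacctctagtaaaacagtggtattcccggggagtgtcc
Cpa3: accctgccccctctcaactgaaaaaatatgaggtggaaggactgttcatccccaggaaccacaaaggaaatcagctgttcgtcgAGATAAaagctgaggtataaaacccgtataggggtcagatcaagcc
Over 246 aligned bases the Mcpt1 and Mcpt4 promoters were 84.1% identical, and both held TGATAA, at 99 and 103 bases before the start. Cma1 was 63.2% identical to Mcpt1, which is within the 51.3% to 66.5% found for the other pairs of members. A word match describes the letters only, and factor binding was not measured.

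Libraries held 18472867 to 56744113 estimated counts, and levels below are CPM, that is, counts relative to library size, scaled by TMM factors over all libraries. Foxa1 ranged from 10.1 to 14.5 CPM in the proximal colon of deficient mice and from 7.21 to 10.5 CPM in their distal colon. Control replicate 6, whose label gives Cre with both Foxa1 alleles flanked, had 13.9 CPM proximally and 7.60 CPM distally, while the other control libraries had 42.4 to 80.8 CPM. Foxa2 was at 6.05 to 30.4 CPM in control and 0.326 to 1.76 CPM in deficient libraries. Deficient replicate 3, labelled male, had the Y-linked Ddx3y at 0.0216 and 0.617 CPM, against at least 33.4 CPM in the other mice labelled male. The gap between a transcript's full and effective length, as deposited, was the same in all distal libraries and varied from 215 to 246 bases among proximal ones, so the quantification differed between segments, and its part in values across segments was not tested. Epithelial markers summed to 9894 to 23130 CPM and smooth muscle markers to 435 to 3366 CPM, so the tissue was whole colon wall, and the 8 mast cell genes together made up 0.423 to 92.1 CPM.

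**Figure D1:**
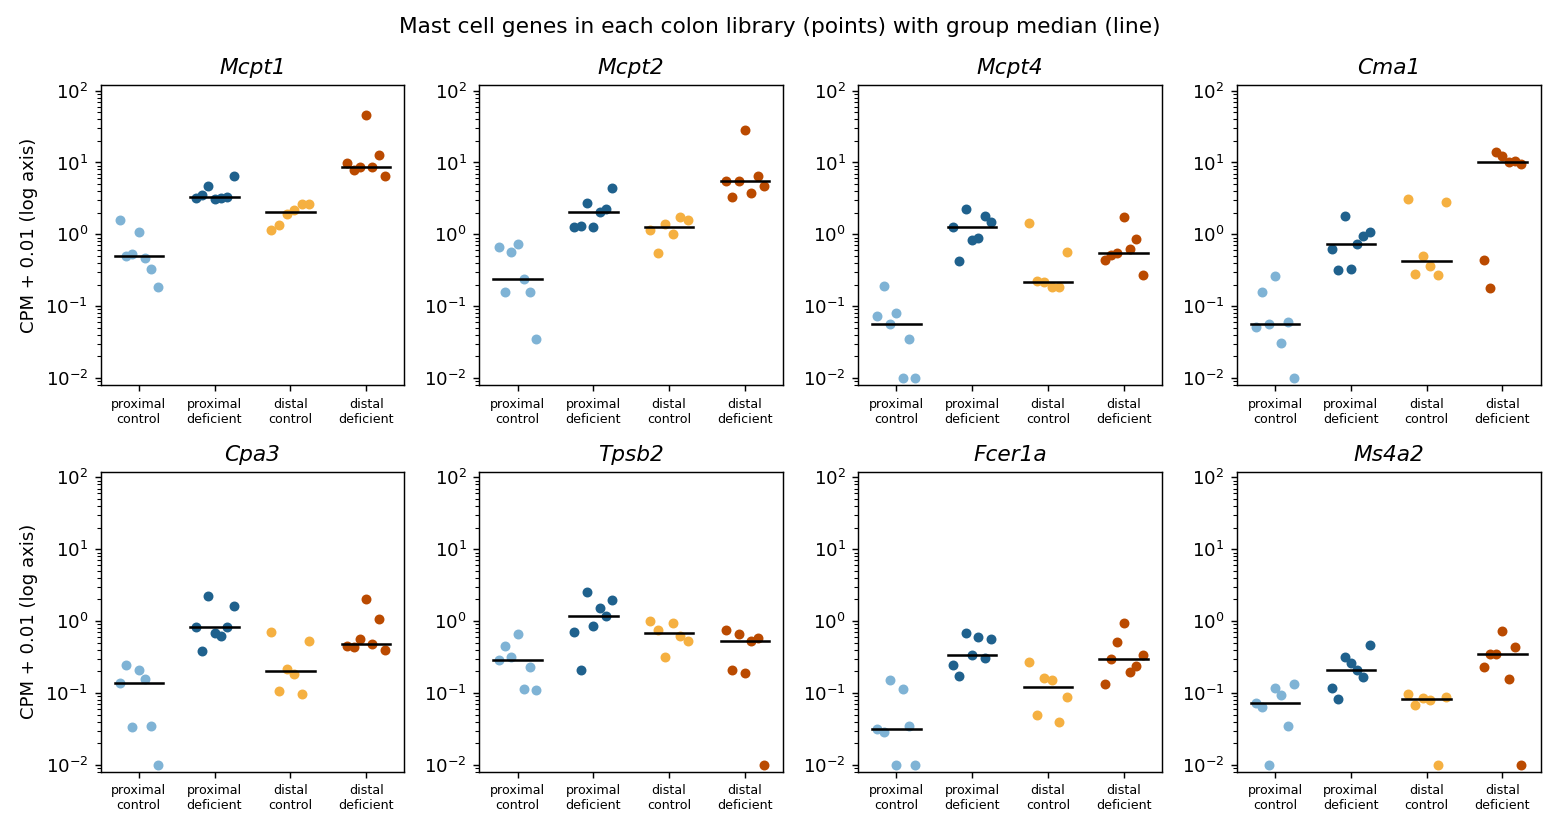
Levels of the 8 mast cell genes in each of 27 colon libraries, as CPM + 0.01 on a log axis, by segment and genotype group, with a line at the group median. In proximal colon the deficient libraries of Mcpt1, Mcpt2, Mcpt4, Cma1, Cpa3 and Fcer1a all lie above every control library, and in distal colon this is so for Mcpt1 and Mcpt2. The share of all genes with groups apart was not counted.

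The first comparison asked how loss of both factors in the epithelium changed these genes in proximal colon. The 6 protease genes rose in deficient mice, by 4.18-fold for Tpsb2 to 20.9-fold for Mcpt4. They stood among 16787 genes tested, of which 11.7% were called at an adjusted p under 0.05 in either direction and 5.52% were called higher (edgeR quasi-likelihood test, Benjamini-Hochberg adjustment, here and for every adjusted p unless another tool is named). The median log2 fold change was 2.87 over the 6 genes and 0.01 over all genes. Fcer1a and Ms4a2 did not pass the filter on low counts and are described without it. A gene low in control mice could pass that filter through the deficient libraries alone, so the count and median of the 6 are a description only. Overlap of groups is likewise a description of each gene, here and below, since the share of all genes without overlap was not counted. Without the filter 7 of the 8 genes were called higher, against 2.66% of 29235 genes. Members were chosen with earlier results of these data known, so counts of members, here and below, are descriptions only. In pieces of whole tissue, fewer cells of a type and less RNA per cell cannot be told apart, nor can more cells and more RNA per cell.

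Mcpt1, the mucosal chymase shed into blood during worm infection, was at 0.174, 0.491 and 1.60 CPM (lowest, median and highest) in the 7 proximal control libraries. In the 7 proximal deficient libraries it was at 3.10, 3.30 and 6.55 CPM. The groups did not overlap, and the log2 fold change was 2.58 (SE 0.38, adjusted p = 0.000217). Mcpt2, which lies 21.7 kb from Mcpt1 and is expressed in the same mucosal cells, was at 0.0249, 0.232 and 0.730 CPM in control and 1.24, 2.01 and 4.34 CPM in deficient libraries. All 7 deficient libraries were above every control library (log2 fold change 2.59, SE 0.49, adjusted p = 0.00199). The ratio of Mcpt1 to Mcpt2 counts was 1.48 to 2.72 in proximal deficient libraries, with a median of 1.77.

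Mcpt4, the main chymase of connective tissue mast cells in mice, was at 0, 0.0469 and 0.182 CPM in proximal control libraries. It was at 0.414, 1.26 and 2.23 CPM in proximal deficient libraries. Control libraries of replicates 5 and 7 had no count, which allows up to 0.0632 and 0.0747 CPM (3 counts, counting error only). No deficient library reached down to the control range, and the log2 fold change was 4.38 (SE 0.55, adjusted p = 4.79e-05). It was 5.06 without control replicate 2, the highest control library, and 3.75 in mice of 9 to 13 months only. The 3 control mice of 18 months were at 0 to 0.0248 CPM, below the 4 younger ones at 0.0469 to 0.182 CPM. The ratio of Mcpt1 to Mcpt4 counts was 1.81 to 8.52 in proximal deficient libraries, with a median of 3.62.

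Cma1, a chymase gene whose product is an elastase-like enzyme in mice, was at 0, 0.0469 and 0.249 CPM in proximal control libraries and at 0.306, 0.728 and 1.79 CPM in deficient libraries. The groups lay close without overlapping, and the log2 fold change was 3.27 (SE 0.56, adjusted p = 0.000884). It was 3.88 without control replicate 4, the highest control library. Cpa3, the carboxypeptidase that trims what chymases have cut, was at 0, 0.126 and 0.237 CPM in control libraries. In deficient libraries Cpa3 was at 0.378, 0.813 and 2.21 CPM. Again every deficient library was above the controls (log2 fold change 3.15, SE 0.54, adjusted p = 0.000889). Control replicate 7 had no count of Cma1 or Cpa3, which allows up to 0.0747 CPM for each. Without deficient replicate 3 and the mice labelled female, an alternative chosen after seeing the data, the log2 fold change was 2.68 for Cma1 and 2.55 for Cpa3, and both were still called.

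Tpsb2, a tryptase that is stored bound to heparin, was at 0.0996, 0.273 and 0.659 CPM in proximal control libraries. It was at 0.198, 1.18 and 2.51 CPM in proximal deficient libraries. The groups overlapped, since deficient replicate 2 lay within the control range while the 6 other libraries lay above it. Among controls, Tpsb2 was at 0.0996 to 0.223 CPM in the 3 mice of 18 months and at 0.273 to 0.659 CPM in the 4 younger ones. The log2 fold change was 2.07 (SE 0.49, adjusted p = 0.0101). This call was the least stable of the 6. It was lost in mice of 9 to 13 months (1.59, adjusted p = 0.1), and without deficient replicate 3 and the mice labelled female (1.25, adjusted p = 0.175). Replicate numbers as a block also ended it (1.96, adjusted p = 0.0748), although numbers do not pair mice across genotypes. The related tryptase gene Tpsab1, 20.7 kb away, had 3 counts over the 7 proximal control libraries and 79 over the 7 deficient libraries. In distal colon Tpsab1 had 3 and 41 counts, and without the filter it was called higher in both segments (log2 fold change 4.38, adjusted p = 0.00282, and 3.37, adjusted p = 0.0326).

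The receptor genes had few counts, 14 and 134 for Fcer1a and 22 and 72 for Ms4a2 over the control and deficient libraries of proximal colon. Fcer1a, the IgE-binding chain, was at 0, 0.0210 and 0.141 CPM in proximal control and 0.162, 0.325 and 0.670 CPM in proximal deficient libraries. The groups did not overlap, and without the filter the log2 fold change was 3.15 (SE 0.60, adjusted p = 0.00229). It was 3.74 without control replicate 3, the highest control library. Ms4a2, the signal-amplifying beta chain, was at 0, 0.0631 and 0.124 CPM in control and 0.0720, 0.197 and 0.450 CPM in deficient libraries. These groups overlapped, with 5 of 7 deficient libraries above the controls. Ms4a2 missed the threshold (log2 fold change 1.69, SE 0.53, adjusted p = 0.0694), although DESeq2 called it (1.74, adjusted p = 0.0209).

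The second comparison asked the same of distal colon. Mcpt1 and Mcpt2 rose, while the 4 other proteases tested did not pass the threshold. The 2 called genes stood among 16041 tested, of which 6.07% were called in either direction and 2.7% were called higher. The median log2 fold change was 2.12 over the 6 proteases and 0.01 over all genes. Without the filter 3 of the 8 members were called higher, against 1.52% of 27277 genes. DESeq2 called 4 members higher, adding Cma1 and Ms4a2.

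In the 6 distal control libraries Mcpt1 was at 1.12, 2.05 and 2.61 CPM. In the 7 distal deficient libraries it was at 6.52, 8.56 and 45.8 CPM, with the highest value in replicate 4 and the next at 12.9 CPM. The groups did not overlap (log2 fold change 2.87, SE 0.48, adjusted p = 0.00218). Mcpt2 was at 0.540, 1.25 and 1.71 CPM in distal control and 3.25, 5.50 and 28.3 CPM in distal deficient libraries. Replicate 4 was again the highest by far, and all deficient libraries were above the controls (log2 fold change 2.76, SE 0.53, adjusted p = 0.00593). Without that library the log2 fold change was 2.22 for Mcpt1 (adjusted p = 0.000156) and 2.01 for Mcpt2 (adjusted p = 0.00083).

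Mcpt4 was at 0.174, 0.208 and 1.43 CPM in distal control libraries and at 0.261, 0.533 and 1.76 CPM in distal deficient libraries. Only 1 of the 7 deficient libraries exceeded the highest control, replicate 1, and the test was not passed (log2 fold change 0.73, SE 0.56, adjusted p = 0.549). The log2 fold change was 1.48 without that control library (adjusted p = 0.109). Cpa3 was at 0.0869, 0.189 and 0.692 CPM in distal control and 0.391, 0.476 and 2.03 CPM in distal deficient libraries. The ranges overlapped, with 2 of 7 deficient libraries above the controls (log2 fold change 1.49, SE 0.56, adjusted p = 0.158). Tpsb2 was at 0.306, 0.671 and 0.995 CPM in distal control and 0, 0.512 and 0.746 CPM in distal deficient libraries. No deficient library was above the control range (log2 fold change -0.68, SE 0.48, adjusted p = 0.515). Replicate 7 had no Tpsb2 count, which allows up to 0.196 CPM. The distal value of Tpsb2 was thus below 0 while that of its neighbour Tpsab1 was above 0, and the difference between these genes was not tested. The 2 main Tpsb2 transcripts went opposite ways in distal colon. Summed over libraries, Tpsb2-203 had 84.5 estimated counts in control and 0 in deficient mice, and Tpsb2-201 had 47.3 and 87.6. In proximal colon they had 37.0 and 164, and 59.5 and 238. Single transcripts were not tested.

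Cma1 split the distal libraries of both genotypes. In deficient mice it was at 0.435 and 0.169 CPM in replicates 1 and 2, both 9 months old, and at 9.39 to 13.8 CPM in the 5 others. In control mice it was at 3.07 and 2.77 CPM in replicates 1 and 6, the control mice with Cre, and at 0.261 to 0.484 CPM in the 4 without Cre. The groups overlapped and the test was not passed (log2 fold change 2.82, SE 0.93, adjusted p = 0.101). Without deficient replicate 2 the log2 fold change was 3.05 and passed (adjusted p = 0.0386), and DESeq2 also called it (2.77, adjusted p = 0.032).

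The 2 control mice with Cre also had the highest distal control levels of Mcpt4, at 0.554 and 1.43 CPM against 0.174 to 0.212 CPM in the 4 without Cre. For Cpa3 the values were 0.515 and 0.692 CPM against 0.0869 to 0.204 CPM. Mcpt1 did not follow this split, at 1.12 and 2.61 CPM with Cre and 1.33 to 2.61 CPM without. The same libraries, replicates 1 and 6, were also the highest distal controls for Sval1 (485 and 546 CPM), Lsr (148 and 146 CPM) and Ephb6 (18.5 and 49.0 CPM). Cre and other traits of these 2 libraries cannot be told apart. Against the 4 distal control mice without Cre, 5 members were called higher in deficient mice, in a fit that called 5.52% of 16459 genes in either direction and 2.76% higher. These were Mcpt1 and Mcpt2 with Mcpt4 (log2 fold change 1.88, adjusted p = 0.041), Cpa3 (2.46, adjusted p = 0.0274) and Cma1 (4.57, adjusted p = 0.0272). In proximal colon Mcpt4 was at 0.0248 and 0.0631 CPM with Cre and 0 to 0.182 CPM without, so the ranges overlapped there.

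In distal colon Fcer1a was at 0.0290, 0.110 and 0.260 CPM in control and 0.124, 0.282 and 0.925 CPM in deficient libraries, with 4 of 7 deficient libraries above the controls. Without the filter its log2 fold change was 1.73 (SE 0.56, adjusted p = 0.123). Ms4a2 was at 0, 0.0731 and 0.0865 CPM in distal control and 0, 0.337 and 0.716 CPM in distal deficient libraries. It was above the control range in 6 of 7 deficient libraries and at 0 in the seventh, replicate 7, where up to 0.196 CPM is allowed. Without the filter Ms4a2 passed (log2 fold change 2.37, SE 0.62, adjusted p = 0.0457), on 12 counts over the control and 72 over the deficient libraries. This call was lost against control mice without Cre (2.57, adjusted p = 0.075).

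**Figure D2:**
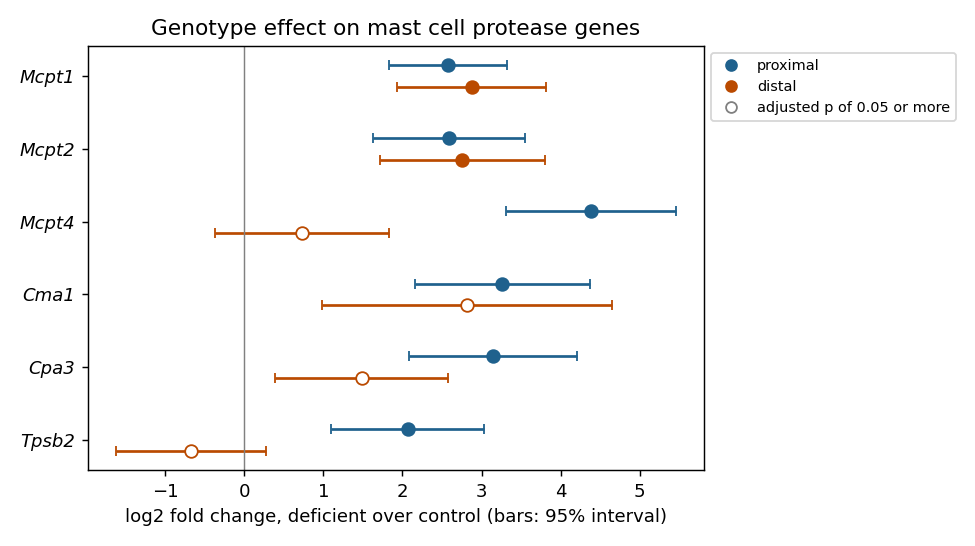
Log2 fold change of deficient over control mice for the 6 protease genes in proximal (blue) and distal (orange) colon, with 95% intervals and open symbols where the adjusted p was 0.05 or more. Mcpt1 and Mcpt2 have like values in both segments, while Mcpt4 (4.38 and 0.73) and Tpsb2 (2.07 and -0.68) lie apart.

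Whether the genotype effect differed between segments was tested in the 13 mice that gave both segments (26 libraries, animal as a blocking factor). Of 17595 genes 1.01% were called, and of the 8 mast cell genes 0 were called by edgeR. At an unadjusted p under 0.05 there were 2, Mcpt4 and Tpsb2, and DESeq2 called the same 2. The difference for Mcpt4, distal minus proximal on the log2 scale, was -3.33 (SE 0.82, adjusted p = 0.073, and 0.00177 by DESeq2). For Tpsb2 it was -2.55 (SE 0.67, adjusted p = 0.0936, and 0.00584 by DESeq2). The Mcpt4 difference passed without control replicate 2 (-4.11, adjusted p = 0.0399) and without deficient replicate 4 (-3.68, adjusted p = 0.046). For Mcpt1 the difference was 0.00, and -0.39 to 0.26 on leaving out each mouse. For Mcpt2 it was -0.09, and -0.50 to 0.18 on leaving out each mouse. DESeq2 gave -0.06 (SE 0.56) for Mcpt1 and -0.17 (SE 0.61) for Mcpt2, so these values do not show that the effects were alike. Cpa3 differed by -1.39 (SE 0.86, adjusted p = 0.564), Cma1 by -0.33 (SE 1.05, adjusted p = 0.936, and 0.31 without control replicate 1), Fcer1a by -1.35 (SE 0.84, adjusted p = 0.567) and Ms4a2 by 0.43 (SE 1.03, adjusted p = 0.909). Median differences were -0.89 for smooth muscle, -0.86 for mesothelial and -1.04 for adipocyte markers, and 0.59 for pan-leukocyte and 1.55 for B cell markers. Over all genes the median was 0.01. Of 6 smooth muscle markers 5 had an unadjusted p under 0.05, and edgeR and DESeq2 called 0. Of 7 B cell markers 4 had such a p, with 0 called by edgeR and 3 called higher by DESeq2. Their median log2 fold change with genotype was -1.58 in proximal and 0.54 in distal colon. Of 5 neutrophil markers 4 had such a p, with 0 called by edgeR, and 2 higher and 1 lower by DESeq2. The part of tissue make-up in the Mcpt4 and Tpsb2 values was not tested.

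Distal and proximal colon of the same mice were then compared. In the 6 control mice 43.8% of 16507 genes differed between segments, and Cma1, Mcpt1, Mcpt2 and Tpsb2 passed the filter and were called higher in distal colon. Since a gene can pass through the segment where it is high, their number is not read as a result. Without the filter Mcpt4 was also called (2.49, adjusted p = 0.0109), while Cpa3 (0.99, adjusted p = 0.321), Fcer1a (1.21, adjusted p = 0.345) and Ms4a2 (0.17, adjusted p = 0.902) did not pass, and Cpa3 was higher distally in 3 of 6 mice. Cma1 was higher by 3.11 on the log2 scale (SE 0.77, adjusted p = 0.0103) and in 6 of 6 mice, although without control replicate 1 the difference was 2.47. Mcpt2 was higher by 1.68 (SE 0.40, adjusted p = 0.00834) and in 6 of 6 mice. Mcpt1 was higher by 1.54 (SE 0.41, adjusted p = 0.015) and in 5 of 6 mice. Tpsb2 was higher by 1.08 (SE 0.34, adjusted p = 0.028). This last call was lost on leaving out control replicate 1 (0.91, adjusted p = 0.0776), 2 (1.16, adjusted p = 0.0535), 5 (0.86, adjusted p = 0.07) or 6 (1.05, adjusted p = 0.0566), and the Mcpt1 call on leaving out control replicate 5 (1.34, adjusted p = 0.0511).

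In the 7 deficient mice 45.1% of 16514 genes differed between segments. Of the 8 members 3 were higher and 1 lower in distal colon, a number near that share and not read as a result. Mcpt1 was higher by 1.53 on the log2 scale (SE 0.38, adjusted p = 0.00878), Mcpt2 by 1.58 (SE 0.44, adjusted p = 0.0157) and Cma1 by 2.78 (SE 0.67, adjusted p = 0.00831). This held in 6, 7 and 5 of the 7 mice. Tpsb2 was lower by a log2 value of -1.48 (SE 0.51, adjusted p = 0.0383), and this call was lost without deficient replicate 3, 4, 5 or 6 (adjusted p of 0.0979, 0.0872, 0.0672 and 0.0622). Mcpt4 differed by -0.85 (adjusted p = 0.118), which passed without deficient replicate 4 (-1.20, adjusted p = 0.0286), and Cpa3 by -0.41 (adjusted p = 0.467). Fcer1a and Ms4a2 did not pass either, at -0.20 and 0.58 (adjusted p of 0.693 and 0.407).

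The share of each gene in the summed protease signal was then described by group. Mcpt1 held 36.9% to 43.6% of the summed CPM of the 6 proteases on average in each group, and Mcpt2 20.2% to 23.6%. Mcpt4 held 12.1% ± 3.98 in proximal deficient libraries (SD, n = 7) and 2.38% ± 0.891 in distal deficient libraries (SD, n = 7), against 3.15% ± 3.75 and 6.90% ± 5.12 in proximal and distal control libraries. Tpsb2 held 11.4% ± 4.47 in proximal and 1.73% ± 1.43 in distal deficient libraries, and 21.6% ± 8.75 and 13.1% ± 6.87 in the controls (SD). Cma1 was the most uneven, with 26.2% ± 19.9 in distal deficient libraries. These shares were not tested. Per transcript length, in TPM, Mcpt1 was the highest of the 8 genes in each group mean, from 1.11 ± 0.797 TPM in proximal control to 22.1 ± 21.9 TPM in distal deficient libraries (SD, n = 7 each). Ms4a2 was the lowest of the group means in TPM, at 0.0600 ± 0.0501 in proximal control and 0.264 ± 0.190 in distal deficient libraries (SD).

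**Figure D3:**
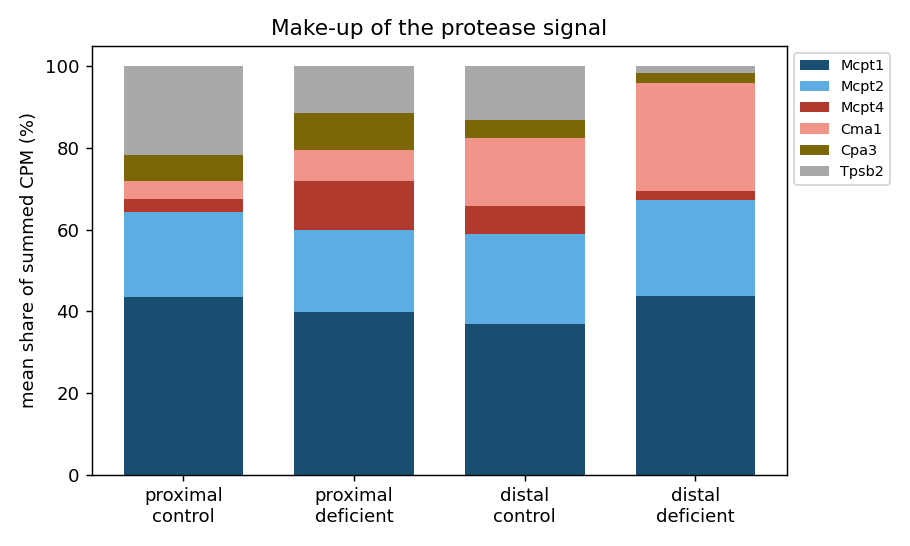
Mean share of each protease gene in the summed CPM of the 6 protease genes, in percent, for the 4 groups of libraries. Mcpt1 and Mcpt2 hold most of the signal in each group, Mcpt4 has its largest share in proximal deficient (12.1%) and Cma1 in distal deficient libraries (26.2%).

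The other chymase-locus genes were examined next to the members. Of 15 genes of the locus and its granzyme neighbours, 5 were tested in proximal colon. There 4 rose, the member chymase genes described above, and the median log2 fold change of the 5 was 2.59, against 0.01 over all genes. In distal colon 6 were tested and 3 rose, Mcpt1, Mcpt2 and Cma2, with a median of 2.79. Of all genes tested, 5.52% were called higher in proximal and 2.7% in distal colon. The filter can pass genes through the deficient libraries alone, so these counts are a description only. Cma2 did not pass it in proximal colon, where DESeq2 called it higher (2.92, adjusted p = 0.0213). Cma2, which shares words with Mcpt4, was at 0.0349, 0.0672 and 0.130 CPM in distal control and 0.326, 0.768 and 4.15 CPM in distal deficient libraries. The groups did not overlap (log2 fold change 4.12, SE 0.62, adjusted p = 0.00101), and replicate 4 was again the highest. Mcpt9, known from mucosal and uterine mast cells, had 9 counts over the distal control and 68 over the distal deficient libraries. Mcpt8, which is known from basophils, had 7 and 41 counts there, and 14 and 16 counts in proximal control and deficient libraries. In distal colon and without the filter, Mcpt9 had a log2 fold change of 2.68 (adjusted p = 0.0411) and Mcpt8 of 2.39 (adjusted p = 0.0227).

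Of 10 other granule genes, 6 were tested in proximal colon, where 0 rose and 1 fell, and 7 in distal colon, where 1 rose (Cma2) and 0 fell. Their median log2 fold changes were -0.11 and 0.08. DESeq2, which gave a value for 9 of them in each segment, called 2 higher and 1 lower in proximal and 4 higher in distal colon. The gene that fell was Tpsg1, a membrane-anchored tryptase (log2 fold change -0.54, adjusted p = 0.0293), and leaving out control replicate 4 or 7 or deficient replicate 3 or 6 ended that call, with adjusted p of 0.0616, 0.0521, 0.0609 and 0.0617. It was also lost in mice of 9 to 13 months (adjusted p = 0.0956) and with a transcript-length offset (adjusted p = 0.0657). Hdc, the enzyme that makes histamine, had log2 fold changes of 0.44 in proximal (adjusted p = 0.235) and 1.08 in distal colon (adjusted p = 0.0859). Of 10 other receptor and regulator genes, 7 were tested in each segment. In proximal colon 1 rose and 1 fell (median -0.04), and in distal colon 0 were called by edgeR, 3 had an unadjusted p under 0.05 and 1 was called by DESeq2 (median 0.31).

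The gene that rose was Il1rl1, the receptor for the alarmin IL-33 on mast cells and type 2 lymphocytes. It was at 2.82, 3.66 and 8.16 CPM in proximal control and 11.7, 18.4 and 35.6 CPM in proximal deficient libraries. The groups did not overlap (log2 fold change 1.95, SE 0.29, adjusted p = 0.000252), and in distal colon the test was not passed (1.16, SE 0.39, adjusted p = 0.11). The gene that fell was Kit, the stem cell factor receptor of mast cells and of interstitial cells of Cajal. Kit was at 41.7, 53.8 and 68.4 CPM in proximal control and 19.9, 23.2 and 35.1 CPM in proximal deficient libraries. All deficient libraries lay below the controls (log2 fold change -0.99, SE 0.14, adjusted p = 0.000163). Of the 4 Cajal cell markers, among them Kit itself, Ano1 also fell, from 18.2 to 26.9 CPM in control to 10.3 to 15.6 CPM in deficient libraries (-0.75, SE 0.12, adjusted p = 0.0004). Etv1 (-0.23, adjusted p = 0.489) and Lix1 (0.02, adjusted p = 0.966) did not pass. The list summed to 70.2 to 105 CPM in control and 38.4 to 57.5 CPM in deficient libraries, and Kit made up most of that sum. The part of other cell types in the Kit value was not tested. In distal colon Kit did not pass (-0.17, adjusted p = 0.782).

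Fcer1g, the gamma chain shared by many Fc receptors, had log2 fold changes of 0.32 in proximal (adjusted p = 0.325) and 0.67 in distal colon (adjusted p = 0.224). Of 13 genes of IgE receptor signalling, all tested, edgeR called 0 in both segments, with a median log2 fold change of -0.03 in proximal and 0.35 in distal colon. In each segment 2 of them had an unadjusted p under 0.05, and DESeq2 called 0 in proximal and 1 in distal colon. Of 10 eicosanoid genes, 9 were tested in each segment. In proximal colon 4 rose, namely Hpgds (0.77, adjusted p = 0.000275), Ptgs1 (0.49, adjusted p = 0.003), Ptgs2 (0.97, adjusted p = 0.00343) and Alox5 (0.91, adjusted p = 0.00405), with a median of 0.36 over the list. They make prostaglandins and leukotrienes. The Alox5 call was lost in mice labelled male without deficient replicate 3 (adjusted p = 0.0694). In distal colon 0 rose and 1 fell, the phospholipase gene Pla2g4a (-0.61, adjusted p = 0.0127), with a median of 0.32. The Pla2g4a call was lost with the replicate block (-0.55, adjusted p = 0.0843) and in mice labelled male without deficient replicate 3 (-0.51, adjusted p = 0.0668).

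Of 17 genes for mast cell growth, homing and alarmins, 12 were tested in proximal colon and 2 rose, with a median log2 fold change of 0.02. These were Kitl, the ligand of Kit (0.36, adjusted p = 0.00633), and Itgb6, an integrin chain that activates TGF-beta (0.69, adjusted p = 0.0246). Itgb6 lost its call on leaving out any 1 of control replicates 2, 4, 5 and 7 and deficient replicates 3 and 4 (adjusted p of 0.0512 to 0.065) and in mice of 9 to 13 months (adjusted p = 0.0594). In distal colon 10 were tested and Il10 rose (1.16, adjusted p = 0.0333), with a median of 0.46. The Il10 call was lost in 8 of 13 fits that left out a library, and the log2 fold change was 1.03 to 1.28 over the 13. It was also lost with the replicate block (adjusted p = 0.163), without the filter, against control mice without Cre, in males and in mice of 9 to 13 months. The alarmin genes Il33 (-0.05, adjusted p = 0.905) and Tslp (0.03, adjusted p = 0.977) did not pass in proximal colon.

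Markers of cells that share genes with mast cells moved in part with the genotype. Of 15 tuft cell markers 14 were tested in proximal colon, and 8 rose and 0 fell (median log2 fold change 0.68), among them Sh2d6 (1.05, adjusted p = 0.00107) and Gnat3 (1.25, adjusted p = 0.00206). They summed to 84.4 to 140 CPM in proximal control and 112 to 168 CPM in proximal deficient libraries, and Alox5, Ptgs1 and Il17rb stand in both that list and lists above or below. In mice labelled male without deficient replicate 3, the calls of Alox5, Il17rb, Pou2f3 and Sucnr1 were among those lost (adjusted p of 0.0694, 0.077, 0.18 and 0.168). Of 13 tested in distal colon edgeR called 0, with 3 at an unadjusted p under 0.05 and 1 called by DESeq2. Of 8 markers of type 2 innate lymphocytes 6 were tested in proximal colon and 2 rose, Il1rl1 and Il17rb (0.79, adjusted p = 0.00639), and the list summed to 27.1 to 42.5 CPM in control and 47.6 to 76.9 CPM in deficient libraries. Of 9 eosinophil markers 5 were tested and Siglecf rose (1.07, adjusted p = 0.0182). The Siglecf call was lost with the replicate block (adjusted p = 0.0654), in mice of 9 to 13 months (adjusted p = 0.0664), in mice labelled male (0.66, adjusted p = 0.0982) and in those without deficient replicate 3 (0.59, adjusted p = 0.201). Of 5 basophil markers 3 were tested and Il3ra rose (0.55, adjusted p = 0.0144). Il3ra did not pass with a transcript-length offset (adjusted p = 0.114), in the authors' log2 CPM (adjusted p = 0.0577), against control mice without Cre (adjusted p = 0.0532), in mice labelled male (adjusted p = 0.068) and in those without deficient replicate 3 (adjusted p = 0.139). The defining basophil gene Mcpt8 was at 0 to 0.147 CPM in proximal control and 0 to 0.151 CPM in proximal deficient libraries. In distal colon it was at 0 to 0.0792 CPM in control and 0.112 to 0.420 CPM in deficient libraries. There it was called higher without the filter (2.39, adjusted p = 0.0227). The part of these cells in the mast cell gene values was not tested. Of 6 pan-leukocyte markers edgeR and DESeq2 called 0 in both segments and 0 had an unadjusted p under 0.05, with summed levels of 100 to 311 CPM in proximal control and 128 to 181 CPM in proximal deficient libraries. In distal colon 3 of 5 neutrophil markers rose, S100a8 (3.14, adjusted p = 0.0256), S100a9 (2.52, adjusted p = 0.0243) and Cxcr2 (1.38, adjusted p = 0.0451). These calls were lost in 6, 4 and 10 of 13 fits that left out a library, and without control replicate 6 the S100a8 value was 4.06. All 3 were also lost with the replicate block (adjusted p of 0.0995, 0.166 and 0.132) and in mice labelled male (adjusted p of 0.0936, 0.0986 and 0.151). In proximal colon 3 neutrophil markers were tested and Ly6g rose, by 2.04 to 3.36 on leaving out each library. That call was lost in 8 of those 14 fits. Of 7 macrophage markers Mertk rose in proximal colon, by 0.63 to 0.72 on leaving out each library, and edgeR called 0 in distal colon.

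Finally, the protease genes were set beside each other and beside all genes across libraries. Likeness was measured as Pearson r of log2(CPM + 0.5) after subtracting the mean of each of the 4 groups, over 27 libraries of 14 mice, among 15574 genes tested in both segments. It is given as a description, because libraries of a mouse share an animal and depth. Mcpt1 and Mcpt2 were each other's nearest gene (r = 0.90), and so were Mcpt4 and Cpa3 (r = 0.88). For Mcpt1 the next genes were Gtf3a and Thg1l (0.63 each), for Mcpt2 they were Guca1a and Bud23 (0.70 and 0.69), and for Mcpt4 they were Cd248 and Nnmt (0.72 each). For Cpa3 the next genes were again members, Mcpt2 (0.69) and Mcpt1 (0.62). Mcpt1 and Mcpt4 were less alike, at r = 0.40.

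**Figure D4:**
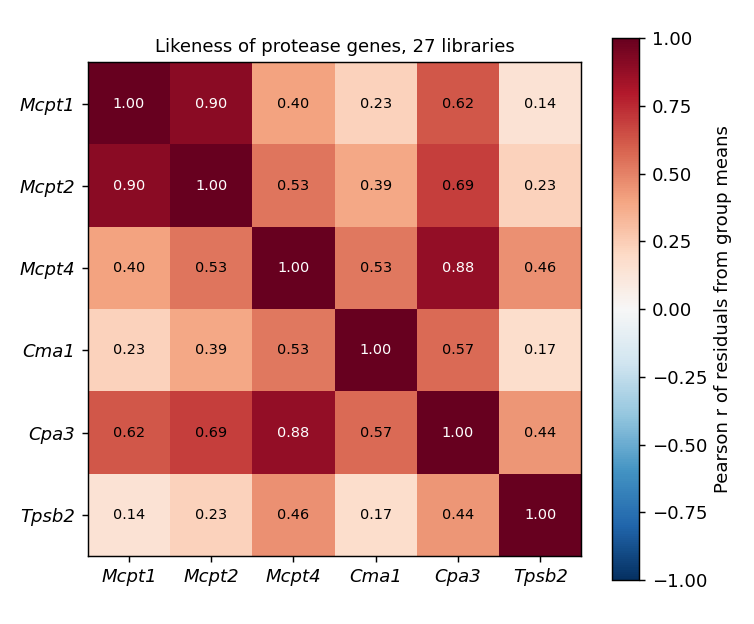
Pearson r between the 6 protease genes over 27 libraries, of log2(CPM + 0.5) after subtracting group means. The pairs Mcpt1 with Mcpt2 (0.90) and Mcpt4 with Cpa3 (0.88) have the highest values, and Tpsb2 is between 0.14 and 0.46 with each of the others.

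Cma1 and Tpsb2 were nearest to genes outside the set. The nearest genes to Cma1 were Sval1 (r = 0.90), Lsr (0.89) and Ephb6 (0.89), none of them on chromosome 14, and its r with Mcpt1 was 0.23. Sval1 was at 239.5 to 546 CPM in distal control libraries and at 21.0 to 406 CPM in distal deficient libraries, with 58.5 and 21.0 CPM in deficient replicates 1 and 2. Those are the libraries in which Cma1 was low. In proximal libraries Sval1 was at 0.0180 to 1.21 CPM. The highest distal control values of Sval1, 485 and 546 CPM, were in replicates 1 and 6, where Cma1 was highest among controls. Ephb6 was likewise lowest in deficient replicates 1 and 2, at 1.87 and 1.75 CPM, against 22.4 to 56.0 CPM in the 5 others. Tpsb2 was nearest to Hagh (0.77), H2-Ke6 (0.76) and Krt10 (0.75), of which Hagh lies 501.9 kb and H2-Ke6 8656.9 kb from Tpsb2 on chromosome 17. Its highest r with a member was 0.46, with Mcpt4. What Cma1 shares with Sval1, or Tpsb2 with Hagh, was not tested.

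**Figure D5:**
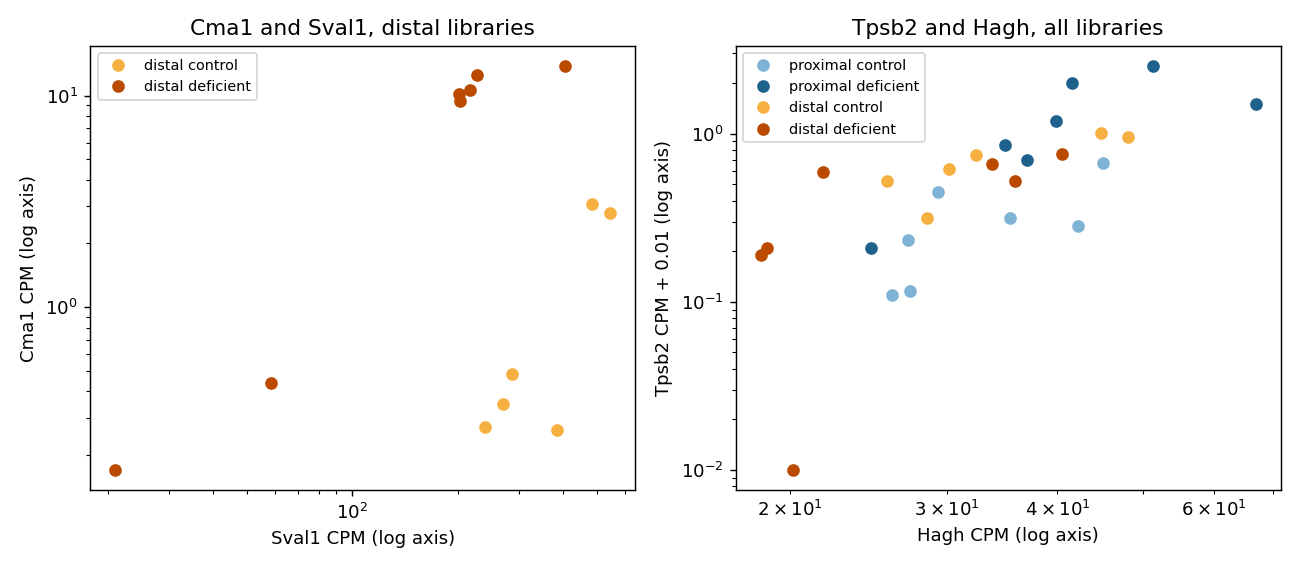
Left, Cma1 against Sval1 in the 13 distal libraries, and right, Tpsb2 (CPM + 0.01) against Hagh in all 27 libraries, both in CPM on log axes and coloured by group. The 2 deficient libraries lowest in Sval1 are also the lowest deficient ones in Cma1, and the 2 control libraries highest in Sval1 have the highest control values of Cma1.

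The values deposited by the authors as log2 CPM held Mcpt1 and Mcpt2 of these genes in proximal colon, and Mcpt1, Mcpt2 and Cma1 in distal colon. In the authors' deposited table of proximal colon, Mcpt1 was at -0.58 ± 0.962 in control and 2.16 ± 0.391 in deficient libraries (SD, n = 7 each). Distal Mcpt1 was at 0.92 ± 0.492 (SD, n = 6) and 3.47 ± 0.951 (SD, n = 7) in the authors' deposited table. Distal Cma1 was there at -0.41 ± 1.504 and 1.85 ± 2.37, so the SD of the deficient libraries was above the difference between the means (2.26 on the log2 scale).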

How the data were processed

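The tools named, per the submitters' processing notes, were kallisto 0.46.2, cutadapt 2.5, bcl2fastq 2.20.0.422 and edgeR (no version), with the build GRCm38 (mm10). For each library the authors deposited estimated counts and TPM of transcripts. For each segment the authors deposited log2 CPM of genes, and how these were scaled is not stated. Transcripts were joined to GENCODE M21 genes by identifier (116728 of 119414 matched), and expected counts were summed per gene and rounded. Each comparison was tested with edgeR 4.0.16 (R 4.3.3) after filterByExpr and TMM, with Benjamini-Hochberg adjustment and a threshold of 0.05. The SE is the log2 fold change over the root of the quasi-likelihood F, which is unreliable near a log2 value of 0, and intervals are 95%. Every replicate is a separate mouse. Replicate numbers do not pair mice across genotypes: same-numbered libraries correlated at -0.161 to 0.265 in proximal colon and -0.123 to 0.27 in distal colon. Segments are paired by animal, per the labels, with r from -0.035 to 0.432 and over 0.1 in 10 of 13 mice. Procedures were tested on simulated data. DESeq2 1.42.0 and limma 3.58.1 served alternatives. Named genes were the members, up to 4 called genes per list, and Kit, Fcer1g, Tpsab1, Mcpt8 and Mcpt9. Members and lists were chosen with earlier results of these data known.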

Additional observations from a re-analysis of the deposited data

Results flagged for a closer look

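Levels of the 8 genes were examined in 4 groups each, 32 in all, and in 7 of them the highest or lowest library stood far from the rest. The rule sets apart about 1 in 20 groups if values are normally distributed, which CPM resting on few counts need not be. Of the 7, 4 come from the same library, so their number is a description only. Distal deficient replicate 4 was the highest library for 4 genes, at 45.8 CPM for Mcpt1 (others 6.52 to 12.9), 28.3 CPM for Mcpt2 (others 3.25 to 6.52), 1.76 CPM for Mcpt4 (others 0.261 to 0.839) and 2.03 CPM for Cpa3 (others 0.391 to 1.07). Mcpt4 was also set apart in distal control replicate 1 at 1.43 CPM (others 0.174 to 0.554) and in proximal control replicate 2 at 0.182 CPM (others 0 to 0.0712). Ms4a2 was at 0 CPM in distal control replicate 5, against 0.0579 to 0.0865 CPM in the others, a gap of a few counts.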

How the results depend on the processing

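Of 227 alternative values of counts of genes or members, 213 equalled the reported count or stayed within 1.5 times it. Among them are 24 proximal and 23 distal values for members lower, which were 0 throughout. The count of members higher in proximal colon was 6 or 7 on leaving out each library, 8 with DESeq2, and 2 in the authors' log2 CPM with limma, which holds only those 2. The distal count of members was 4 with DESeq2 and 5 against control mice without Cre, and 2 or 3 on leaving out each library. Genes called in distal colon numbered 1600 with DESeq2 and 569 in mice labelled male without deficient replicate 3, an alternative chosen after seeing the data. For the difference between segments, genes called numbered 532 with DESeq2, 106 in mice of 9 to 13 months and 102 to 225 on leaving out each mouse, with 110 without deficient replicate 3. Members called there numbered 2 with DESeq2 and 0 or 1 on leaving out each mouse. Without animal as a blocking factor 1 was called (Mcpt4, -3.46, adjusted p = 0.0314), in a fit that ignores that the segments share mice. Members called between segments of control mice numbered 2 to 4 on leaving out each mouse. With the replicate block, proximal members higher numbered 5, Tpsb2 being lost, and distal members higher 2. The causes of these changes were not tested. Low counts limit Fcer1a, Ms4a2 and Mcpt4, and also Cma1 and Cpa3 in proximal control libraries, where they had 0 to 14 and 0 to 13 counts.

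No called value changed sign. Of results that missed the threshold, 11 changed sign in 56 alternative values, and none of these passed. On leaving out each mouse or library, the difference between segments was -1.115 to 0.3133 for Cma1, -0.3933 to 0.2636 for Mcpt1, -0.497 to 0.1838 for Mcpt2 and -0.02458 to 0.8311 for Ms4a2. Distal log2 fold changes were -0.3291 to 0.01229 for Kit, -0.1793 to 0.2409 for Gnat3, -0.3615 to 0.2996 for Ly6g, -0.0724 to 0.3013 for Pou2f3, -0.1548 to 0.0999 for Ptgs1 and -0.06605 to 0.0505 for Tpsg1, and Fcer1a between segments of deficient mice was -0.5351 to 0.04019. With the replicate block distal values were 0.04815 for Tpsg1, -0.1694 for Gnat3 and 0.1415 for Ly6g. Without animal as a blocking factor the segment difference of Mcpt2 was 0.3841. In the authors' log2 CPM distal values were 0.01286 for Tpsg1, -0.1331 for Gnat3 and 0.2588 for Ly6g. Against control mice without Cre they were -0.09053 for Pou2f3, -0.1487 for Gnat3 and 1.118 for Ly6g. In mice labelled male they were 0.01922 for Tpsg1 and, without deficient replicate 3, 0.06984 for Ptgs1, and the segment difference of Mcpt2 was 0.378. In mice of 9 to 13 months distal values were 0.07719 for Ptgs1 and 0.1736 for Ly6g, and segment differences 0.5256 for Mcpt2 and 0.3244 for Cma1. The transcript-length offset gave 0.00173 for distal Ptgs1 and -0.04976 for the segment difference of Ms4a2. For that of Mcpt1, DESeq2 gave -0.05517 and RLE size factors -0.01078.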
